A study of Mus musculus with 18 samples.

Results

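The genes described here drive entry into mitosis. They are the cyclins Ccna2, Ccnb1 and Ccnb2, the kinase Cdk1, the phosphatases Cdc25b and Cdc25c, the opposing kinase Wee1, and the mitotic kinases Plk1, Aurka and Aurkb. They were chosen by name, as every gene of the deposited expected-count table whose Ensembl identifier maps to one of these symbols, which gave 10 of 51912 genes. RNA-seq was performed on primary mouse embryonic fibroblasts (MEFs) at passage 1, derived from C57BL/6 embryos and grown in 5% oxygen with 15% fetal bovine serum. Head, heart and liver had been removed from each embryo before the cells were plated. Embryos carried Pole4 (Pole4+/+) or lacked it (Pole4-/-), and each state was combined with Trp53+/+, Trp53+/- or Trp53-/-, giving 6 genotypes of 3 libraries. POLE4 is a small subunit of DNA polymerase epsilon, and TRP53 is a transcription factor and tumour suppressor. Both alleles were constitutive, so every cell of a culture carried the genotype, and no drug or DNA-damaging agent was applied to any group. The labels do not tie libraries to embryos, so the p-values measure the spread between libraries, which may in part be technical. The comparisons ask how the dose of Trp53 and the loss of Pole4 bear on these transcripts.

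As background, CDK1 bound to cyclin A or cyclin B phosphorylates the proteins that condense chromosomes, break down the nuclear envelope and build the spindle. WEE1 holds CDK1 inactive by phosphorylating it, and the CDC25 phosphatases remove that phosphate. Polo-like kinase PLK1 and Aurora A promote this switch, and Aurora B later corrects the attachment of chromosomes to the spindle. Most of these genes are transcribed late in the cell cycle, through promoters bound by the DREAM and MuvB complexes, B-MYB, FOXM1 and NF-Y, and are silent in resting cells. TRP53 lowers many of them indirectly, through its target Cdkn1a, which encodes the CDK inhibitor p21. In bulk RNA from a culture, fewer cycling cells and less RNA per cell cannot be told apart.

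Promoter sequence is shown because these genes moved together. RefSeq windows on GRCm38.p6, from 250 bases before to 50 bases after the start site, were found for 6 of the 10 genes: Ccnb1, Ccnb2, Cdk1, Cdc25b, Plk1 and Aurka. Ccna2, Cdc25c, Aurkb and Wee1 had none in the table used. The motifs searched on both strands were the cell cycle genes homology region or CHR (TTTGAA or TTTAAA), the CCAAT box, and an E2F site (TTTCCCGC, TTTGGCGC, TTTCGCGC or TTTGCCGC). The lines below give the 5′ to 3′ sequence on the gene's strand within the 140 bases before the start site, less any bases under an annotated exon, with matches in capitals. Ccnb1 is shown at chr13:100786571-100786626, Ccnb2 at chr9:70421555-70421694, Cdk1 at chr10:69352939-69353052 and Aurka at chr2:172370571-172370680, all on the minus strand. Cdc25b is shown at chr2:131186808-131186947 and Plk1 at chr7:122159402-122159434, both on the plus strand.
Ccnb1: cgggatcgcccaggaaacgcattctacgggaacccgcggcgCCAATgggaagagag
Ccnb2: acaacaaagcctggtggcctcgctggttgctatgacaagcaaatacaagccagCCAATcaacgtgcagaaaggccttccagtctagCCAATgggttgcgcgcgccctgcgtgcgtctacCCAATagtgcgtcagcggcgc
Cdk1: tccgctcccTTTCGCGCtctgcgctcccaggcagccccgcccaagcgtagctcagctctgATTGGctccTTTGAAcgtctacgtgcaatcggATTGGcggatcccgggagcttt
Aurka: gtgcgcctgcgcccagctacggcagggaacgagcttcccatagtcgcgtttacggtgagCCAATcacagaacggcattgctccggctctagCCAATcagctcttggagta
Cdc25b: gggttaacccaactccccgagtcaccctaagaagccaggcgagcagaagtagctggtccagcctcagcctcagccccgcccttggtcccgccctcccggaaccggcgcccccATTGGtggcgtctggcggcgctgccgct
Plk1: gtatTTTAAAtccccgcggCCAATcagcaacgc

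A CCAAT box lay in 6 of 6 windows, against 37.4% of all 32817 RefSeq windows of this length. A CHR lay in 5 of 6, all but Cdc25b, against 27.6% of all windows. The E2F letters were found in 1 of 6, Cdk1, against 2.26%. In 4 of 6 windows (Ccnb1, Ccnb2, Cdk1 and Aurka), 2 CCAAT boxes on the same strand lay 31 to 34 bases apart, a spacing chosen after the matches had been seen and present in 0.89% of all windows. In Ccnb1, the boxes began at -99 and -67 and the CHR at -42. The last 2 lie outside the stretch shown, which leaves out bases under an annotated exon. In Aurka, both CHR matches lay after the start site, at 18 and 33. In Cdk1, the reversed boxes at -80 and -48 flanked a CHR at -71. These are matches of letters and not measured binding.

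**Figure D1:**
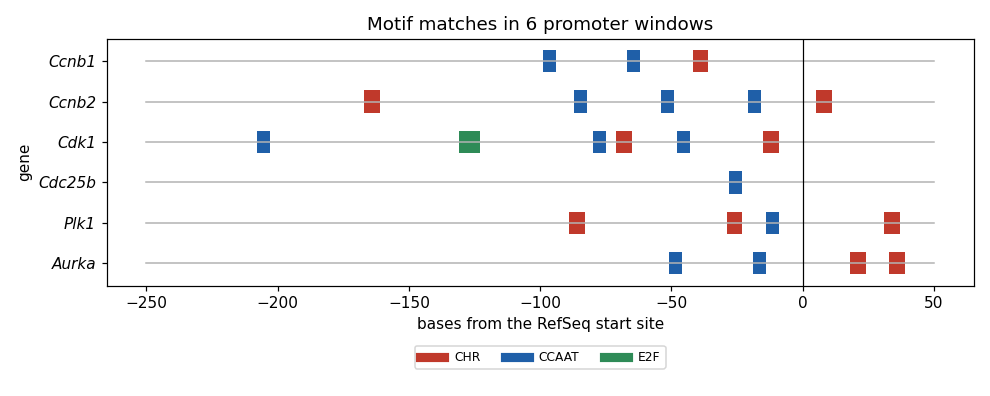
Matches to the CHR, CCAAT and E2F letters in the promoter windows of the 6 genes with a RefSeq window, by distance in bases from the start site (vertical line at 0). CCAAT boxes (blue) stand in all 6 windows and a CHR (red) in all but Cdc25b.

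Trp53 and Cdkn1a followed the labels. Levels are given as CPM, the read count relative to the library's total after TMM scaling. In Pole4+/+ cells, Trp53 stood at 86.6 to 96.1 CPM with Trp53+/+, at 56.2 to 59.6 with Trp53+/- and at 8.65 to 12.1 with Trp53-/-. In Pole4-/- cells, the same alleles gave 64.2 to 72.7, 48.4 to 55.6 and 10.03 to 12.1 CPM. Pole4 lay between 9.26 and 11.99 CPM in the 9 Pole4-/- libraries and between 14.2 and 26.4 in the 9 Pole4+/+ libraries. The lowest of the latter, at 14.2, was the first Pole4+/+ Trp53-/- library, which also held Y-linked genes at 9.08 CPM beside Xist at 1081 CPM. Whether this library holds cells of more than 1 embryo was not tested, and the counts of calls that compare its genotype are given with and without it. Libraries held 9535971 to 35319918 counts, of which ribosomal RNA genes took 0.968% to 42.5%, and by Xist 7 came from male and 11 from female embryos. All 6 libraries of Pole4+/+ Trp53+/+ and Pole4+/+ Trp53-/- were classed as female, the one with Y-linked reads included, and all 3 of Pole4+/+ Trp53+/- were male. Summed fibroblast markers were lowest in Pole4-/- Trp53-/- (13720 to 16520 CPM) and highest in Pole4-/- Trp53+/+ (24890 to 30960 CPM). All 6 erythroid genes were under 1 CPM in every library. Of the 6 endothelial and the 6 epithelial markers, 4 or 5 were under 1 CPM throughout each genotype, with sums of at most 6.17 and 20.2 CPM. The 8 skeletal muscle markers summed to 75.6 to 104.7 CPM in the Trp53+/+, to 36.6 to 155 CPM in the Trp53+/- and to 24.7 to 51.8 CPM in the Trp53-/- libraries, with Myh8 and Ckm under 1 CPM in every genotype. The 7 neuronal and glial markers summed to 67.9 to 98.99 CPM in the Trp53+/+ and to 101.1 to 146 CPM in the Trp53-/- libraries, with Elavl3 under 1 CPM in every genotype. The 8 macrophage markers summed to 4.60 to 49.2 CPM, with Fcgr1 under 1 CPM in every genotype. The part of these markers in the results was not tested.

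The level of the mitotic entry genes was higher the fewer copies of Trp53 the Pole4-/- cells carried. All 10 rose in Pole4-/- Trp53-/- against Pole4-/- Trp53+/+ cells, by log2 differences of 1.05 (Wee1) to 1.89 (Ccna2), with a median of 1.66 against -0.02 over all 15710 genes tested. In this comparison, 21.8% of all genes were called higher (edgeR's quasi-likelihood test, Benjamini-Hochberg adjusted p under 0.05). The libraries of the 2 genotypes did not overlap for any of the 10, against 28.5% of all genes with the Trp53-/- libraries above. With the sex of the embryo as a term, and without any single library, all 10 were still called, beside 38.8% of all genes in either direction with the sex term and 31.5% to 37.3% with a library left out, where 42.6% were called in the full fit. Ribosomal RNA genes took 24.7% to 30.04% of the counts in the Pole4-/- Trp53-/- and 7.11% to 42.5% in the Pole4-/- Trp53+/+ libraries, and the part of this share in the results was not tested. Without Pole4, the summed level of the 10 genes was 234 ± 6.18 CPM (SD, n = 3) with Trp53+/+, 388 ± 64.9 with Trp53+/- and 747 ± 73.6 with Trp53-/-. With Pole4, it was 413 ± 60.8, 462 ± 35.2 and 645 ± 186 CPM in that order.

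**Figure D2:**
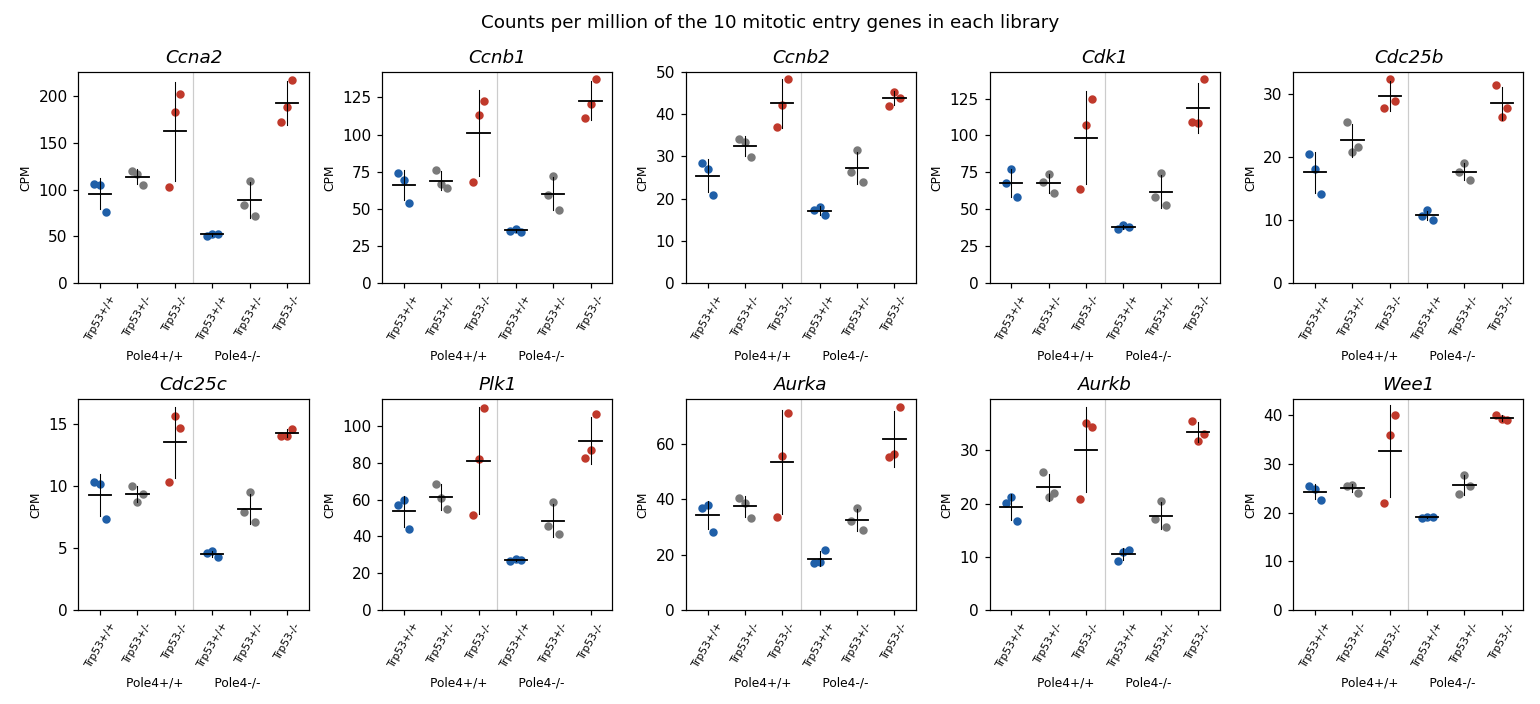
Level of each mitotic entry gene, in TMM-scaled CPM on a linear axis from 0, in the 18 libraries by genotype. Points are libraries, horizontal bars the means and vertical bars the SD of 3 libraries. In Pole4-/- cells, the Trp53+/+, Trp53+/- and Trp53-/- libraries form 3 steps without overlap, and the first Pole4+/+ Trp53-/- library is the lowest of its genotype for each gene, although for Ccnb2 and Cdc25b it still lies above all 3 Pole4+/+ Trp53+/+ libraries.

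Ccna2 (chr3:36564865-36572150, minus strand, GRCm38) encodes cyclin A2, which partners CDK2 in S phase and CDK1 at the onset of mitosis. In Pole4-/- cells, it stood at 50.3, 52.7 and 53.0 CPM with Trp53+/+, at 83.4, 109.7 and 72.2 with Trp53+/-, and at 172, 189 and 218 with Trp53-/-. In Pole4+/+ cells, the levels were 105.6, 104.4 and 76.5 CPM with Trp53+/+, 119.6, 117 and 104.8 with Trp53+/-, and 102.3, 183 and 202 with Trp53-/-. The 3 Trp53 genotypes did not overlap without Pole4, whereas with Pole4 the first Trp53-/- library lay among the Trp53+/+ libraries. The difference for Trp53-/- against Trp53+/+ was 1.89 ± 0.22 on the log2 scale (SE, adjusted p = 1.68e-05) in Pole4-/- cells and 0.76 ± 0.21 (adjusted p = 0.0481) in Pole4+/+ cells. Exons of Ccna2 overlap those of Exosc9 on the other strand, and counting by strand is not stated, so reads of both genes cannot be told apart there. The same holds for Cdc25b with Spef1, Cdc25c with Gm3550 and Plk1 with Gm44985.

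Ccnb1 and Ccnb2 encode the B-type cyclins that bind CDK1. Ccnb1 (chr13:100778650-100786570, minus strand) stood at 35.2, 36.6 and 34.7 CPM in the Pole4-/- libraries with Trp53+/+, at 59.5, 71.9 and 49.5 with Trp53+/- and at 111, 120 and 137 with Trp53-/-. In Pole4+/+ cells, it stood at 73.9, 69.7 and 54.2, at 76.5, 66.4 and 64.2, and at 68.0, 113 and 123 CPM in the same order of Trp53 genotypes. Its Trp53-/- difference was 1.79 ± 0.19 (log2, adjusted p = 1.08e-05) in Pole4-/- cells and 0.61 ± 0.19 (adjusted p = 0.0714) in Pole4+/+ cells. Ccnb2 (chr9:70407692-70421547, minus strand) ranged from 16.1 to 18.03 CPM, 23.9 to 31.5 and 42.1 to 45.3 along the Pole4-/- series. In Pole4+/+ cells, its Trp53-/- libraries (37.1, 42.2 and 48.4 CPM) all lay above the Trp53+/+ libraries (28.4, 27.1 and 20.9 CPM), with a difference of 0.74 ± 0.13 (adjusted p = 0.00341). Ccnb1 counts were over 0.005 from a whole number in 15 of 18 libraries. RSEM gives such values where reads match more than 1 place, and which sequence shared them was not tested. The pseudogene Ccnb1-ps held a median of 2.06 counts per library.

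Cdk1 (chr10:69335146-69352938, minus strand) encodes the kinase itself. It stood at 36.7, 39.5 and 38.0 CPM in the Pole4-/- libraries with Trp53+/+, at 58.5, 74.3 and 53.1 with Trp53+/- and at 109, 108.5 and 138 with Trp53-/-. The Pole4-/- genotypes again did not overlap. With Pole4, its levels in the same order were 68.0, 77.4 and 58.1, then 68.4, 73.6 and 60.7, then 63.5, 107.4 and 124 CPM. The Trp53-/- difference was 1.64 ± 0.20 (log2, adjusted p = 2.77e-05) without Pole4 and 0.53 ± 0.20 (adjusted p = 0.133) with Pole4.

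Cdc25b and Cdc25c, the phosphatases that activate CDK1, and Wee1, the kinase that opposes them, rose in the same comparison. Cdc25b (chr2:131186949-131198497, plus strand) rose from 10.04 to 11.5 CPM in Pole4-/- Trp53+/+ to 26.3 to 31.4 in Pole4-/- Trp53-/- libraries, by 1.41 ± 0.13 (log2, adjusted p = 3.96e-06). Cdc25c was the least abundant of the 10, at 4.28 to 4.76 and 14.02 to 14.6 CPM, and rose by 1.64 ± 0.17 (adjusted p = 9.24e-06). Wee1 (chr7:110122046-110143286, plus strand) stood at 19.0, 19.2 and 19.1 CPM in the Pole4-/- libraries with Trp53+/+, at 23.8, 27.8 and 25.5 with Trp53+/- and at 40.1, 39.2 and 39.1 with Trp53-/-. The rise of Wee1, 1.05 ± 0.15 (adjusted p = 0.000107), was the smallest of the 10. The ratio of Cdk1 to Wee1 CPM was 1.99 ± 0.0611 (SD, n = 3) in Pole4-/- Trp53+/+ and 3.01 ± 0.456 in Pole4-/- Trp53-/- cells, without overlap. The exact two-sided permutation test of this ratio gave p = 0.1, the smallest that 3 libraries against 3 allow. In Pole4+/+ cells, the same ratio was 2.78 ± 0.292 with Trp53+/+ and 2.99 ± 0.113 with Trp53-/-, and the groups overlapped (exact permutation p = 0.4).

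Plk1 (chr7:122159439-122169873, plus strand) encodes the kinase that promotes CDK1 activation, centrosome maturation and mitotic exit. It stood at 26.6, 27.8 and 27.4 CPM in the Pole4-/- libraries with Trp53+/+, at 45.8, 58.8 and 41.2 with Trp53+/- and at 82.5, 86.9 and 106.4 with Trp53-/-. These steps did not overlap, and the Trp53-/- difference was 1.75 ± 0.22 (log2, adjusted p = 3.14e-05). Aurka (chr2:172356190-172370535, minus strand), which encodes the spindle pole kinase Aurora A, rose by 1.74 ± 0.22 (adjusted p = 3.34e-05), from 16.9 to 21.6 CPM to 55.3 to 73.1. Aurkb (chr11:69045647-69051664, plus strand), which encodes the kinase of the chromosomal passenger complex, rose by 1.68 ± 0.18 (adjusted p = 1.03e-05), from 9.29 to 11.4 CPM to 31.7 to 35.6. Per kilobase of exon, Ccna2 (47.2 CPM per kb) and Plk1 (41.8) were the most abundant in Pole4-/- Trp53-/- cells and Cdc25c (2.89) the least. Plk1 counts were over 0.005 from a whole number in 8 of 18 libraries.

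The heterozygotes lay between the homozygotes in Pole4-/- cells. All 10 genes were ordered Trp53+/+ below Trp53+/- below Trp53-/- without overlap of any library, against 9.79% of all genes, and in Pole4+/+ cells 2 of 10 (Ccnb2 and Cdc25b) were, against 0.452% of all genes. Against Pole4-/- Trp53+/+, 8 of 10 were called higher in Pole4-/- Trp53+/-, with log2 differences of 0.66 (Ccnb2) to 0.83 (Cdc25c) and 2.96% of all genes called higher. Cdk1 (0.70 ± 0.20, adjusted p = 0.0525) and Wee1 (0.43 ± 0.15, adjusted p = 0.101) did not pass the edgeR test. Under the 7 alternatives that left out no single library, Cdk1 was called in 5 and Wee1 in 2. From Trp53+/- to Trp53-/-, all 10 rose further by 0.62 to 1.13, where 6.58% of all genes were called higher. With scaling by library totals alone, which moved the median of all genes in this comparison to -0.33, 2 of 10 were called, beside 7.97% of all genes in either direction. Ribosomal RNA genes took 3.75% to 15.5% of the counts in Pole4-/- Trp53+/- libraries, below all 3 Pole4-/- Trp53-/- libraries. Summed fibroblast markers stood at 20560 to 26020 CPM in the Pole4-/- Trp53+/- and 13720 to 16520 CPM in the Pole4-/- Trp53-/- libraries. The skeletal muscle markers summed to 77.5 to 155 and 27.4 to 51.8 CPM in that order. The part of this share and of these markers was not tested. The heterozygous difference amounted to 40.5% to 51.0% of the null difference on the log2 scale, with a median of 46.2%. In Pole4+/+ cells, this share ran from -0.964% to 49.0%, with a median of 26.6%. The 8 calls were sensitive to single libraries: without the second Pole4-/- Trp53+/- library, which was the highest of its genotype for 10 of 10 genes, 0 were called, and 0 likewise without the second Pole4-/- Trp53+/+ library and without the third. Calls over all genes, 5.12% in either direction with all libraries, fell to 0.105%, 0.254% and 0.204% in these fits, whereas the members' own log2 differences ran from 0.37 (Wee1) to 0.95 (Plk1) over the fits that left out a library. Leaving out the first library gave 4 calls for the Trp53+/- and 2 for the Trp53+/+ genotype, beside 3.27% and 1.5% of all genes. Without the third Pole4-/- Trp53+/- library, all but Wee1 were called, beside 3.45%. With the sex of the embryo as a term, 3 were called, beside 1.13%.

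In Pole4+/+ cells, no mitotic entry gene was called in Trp53+/- against Trp53+/+ by edgeR or by DESeq2, and 0.904% of all genes were called by edgeR. An unadjusted p under 0.05 was reached by 2 members and by 10.2% of all genes. All 3 Pole4+/+ Trp53+/- libraries were male and all 3 Trp53+/+ libraries female, so sex and genotype cannot be told apart within this pair. In Trp53-/- against Trp53+/+, 4 of 10 were called higher: Ccna2, Ccnb2, Cdc25b (0.75 ± 0.13, adjusted p = 0.00302) and Aurkb (0.63 ± 0.17, adjusted p = 0.0459). The differences of the 10 ranged from 0.42 (Wee1) to 0.76 (Ccna2), with 2.23% of all genes called higher. Over the fits that left out a library, they ran from 0.23 (Wee1) to 0.98 (Ccna2). The groups did not overlap for 2 of 10, against 8.24% of all genes. DESeq2 called 7 members and 8.44% of the 15282 genes it tested. The first Pole4+/+ Trp53-/- library, the one with Y-linked reads and the lowest Pole4 level of the Pole4+/+ libraries, was the lowest of its genotype for 10 of 10 genes, with a sum of 437 CPM against 702 and 796. Without it all 10 were called, beside 16.9% of all genes in either direction, where 4.6% were called with all libraries. Without any other library of the pair, 2 members were called, beside 2.01% to 4.02% of all genes, and in a fit of these 6 libraries alone 0 were, beside 0.616%. With the sex term, with the replicate number as a block and with library totals alone, 2 were called, beside 4.54%, 5.06% and 1.22% of all genes. In Trp53-/- against Trp53+/- cells with Pole4, 0 were called by edgeR or DESeq2, with 0.579% of all genes called. An unadjusted p under 0.05 was reached by 9 members and by 9.31% of all genes. Without the first Trp53-/- library, 9 were called, beside 9.41% of all genes. These Trp53-/- libraries were female and the Trp53+/- libraries male, so sex and genotype cannot be told apart in this pair either.

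**Figure D3:**
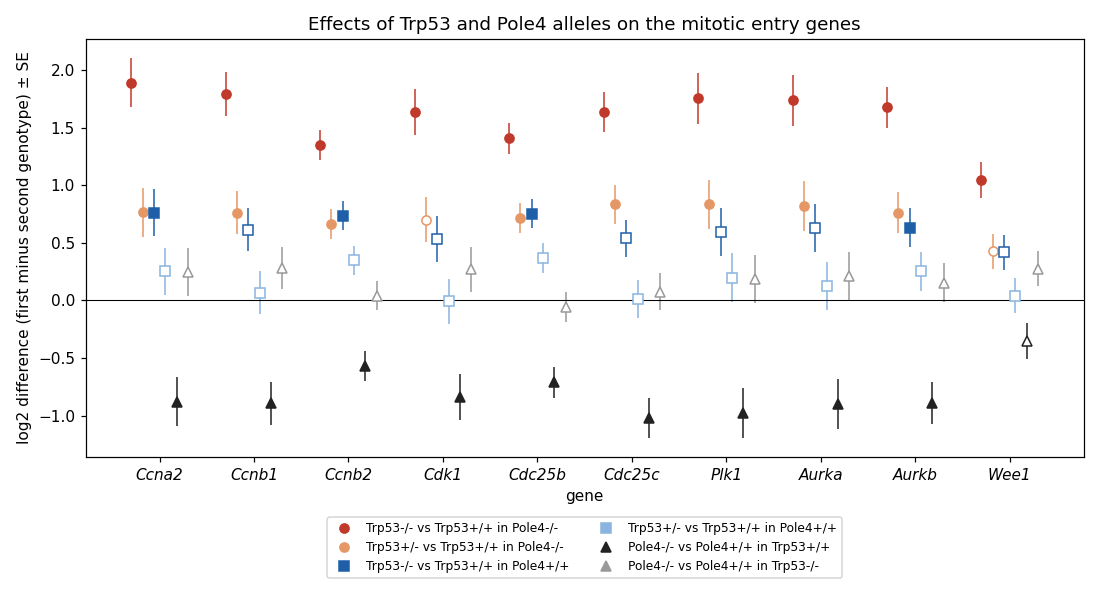
Log2 difference between genotypes for each mitotic entry gene, with its SE, from the edgeR fit to 18 libraries. Filled symbols passed an adjusted p under 0.05 and open symbols did not. The fitted Trp53-/- difference is larger in Pole4-/- cells (red) than in Pole4+/+ cells (dark blue) for each gene, although the difference between the backgrounds did not pass edgeR's adjusted threshold for any, and the Pole4-/- difference is below 0 in Trp53+/+ cells (black) for all 10.

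Loss of Pole4 went with lower levels in the presence of Trp53. In Pole4-/- Trp53+/+ against Pole4+/+ Trp53+/+ cells, 9 of 10 genes fell, by log2 differences of -0.57 (Ccnb2) to -1.02 (Cdc25c), and Wee1 (-0.35 ± 0.15, adjusted p = 0.164) did not pass the test. For comparison, 2.7% of all genes were called lower. For all 10, every Pole4-/- library lay below every Pole4+/+ library, which held for 21.7% of all genes. Plk1, for example, stood at 26.6, 27.8 and 27.4 CPM against 56.8, 59.8 and 44.1. With a term for the embryo's sex, 0 were called by edgeR, beside 0.0509% of all genes, with differences of -0.31 to -0.996, and without 4 of the 6 libraries in turn, namely the second and the third Pole4-/- and the first and second Pole4+/+ libraries, 0 were called, beside 0.0493% to 0.161% of all genes. Without the first Pole4-/- library, 2 were, beside 0.874%. Without the third Pole4+/+ library, all but Wee1 were still called, beside 4.93%. DESeq2 called 9 members and 11.8% of the 13557 genes it tested with all libraries. In edgeR with all libraries, 3.98% of all genes were called in either direction. The Pole4+/+ group was all female and the Pole4-/- group held 1 female and 2 male libraries, so sex and genotype are partly confounded here. Ribosomal RNA genes took 7.11%, 24.1% and 42.5% of the counts in the Pole4-/- libraries against 11.2%, 9.30% and 5.81% in the Pole4+/+ libraries. Summed fibroblast markers stood at 24890 to 30960 CPM against 16330 to 22000 CPM, without overlap. The part of these shares and markers was not tested.

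With reduced Trp53, no such difference was detected. In Trp53+/- cells, 0 of 10 were called by edgeR or DESeq2 for Pole4-/- against Pole4+/+, and the differences ran from -0.38 to 0.04, with 0.00637% of all genes called. An unadjusted p under 0.05 was reached by 2 members, Cdc25b (-0.36 ± 0.13) and Aurkb (-0.38 ± 0.17), and by 5.51% of all genes. For these 2, every Pole4-/- library lay below every Pole4+/+ library, a share that was not counted over all genes. Of the 10 differences, 1 was above 0, where 48.85% were over all genes. In Trp53-/- cells, 0 of 10 were called by either tool, 0 had an unadjusted p under 0.05 (10.4% of all genes did), and the differences ran from -0.06 to 0.28, again with 0.00637% of all genes called. Without the first Pole4+/+ Trp53-/- library, 0 were called as well. With library totals alone, which moved the median of all genes here to -0.44, the differences of 9 genes changed from above to below 0, Ccnb2 for example from 0.04 to -0.37. Ribosomal RNA genes took 24.7% to 30.04% of the counts in the Pole4-/- and 1.82% to 13.1% in the Pole4+/+ libraries, without overlap, and the part of this share was not tested. The Trp53-/- groups overlapped for all 10 genes, and the sums were 747 ± 73.6 CPM without and 645 ± 186 CPM with Pole4 (SD, n = 3).

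Whether the Trp53-/- difference itself depended on Pole4 was tested as an interaction. The difference was larger in Pole4-/- cells for 10 of 10 genes, by 0.61 (Ccnb2) to 1.18 (Ccnb1) on the log2 scale. None passed edgeR's adjusted threshold: adjusted p-values ran from 0.0502 to 0.0899, and 0.331% of all genes were called. All 10 had an unadjusted p under 0.05, as did 28.4% of all genes. DESeq2 called 9 of 10, where it called 12.4% of the 14132 genes it tested. In edgeR, RLE scaling gave 3 (1.6% of all genes), no filter on low counts 4 (1.14% of 29684 genes) and the replicate number as a block 5 (3.49%). The sex term, library totals alone and a fit of only these genotypes gave 0 members and 0.0% of all genes. The calls also moved with single libraries. Without the first, the second or the last Pole4+/+ Trp53-/- library, 4, 8 and 10 members were called, beside 1.07%, 12.3% and 20.1% of all genes, and without the last of the Pole4+/+ Trp53+/+ libraries 9, beside 2.52%. Without any of the other 8 libraries, 0 members were called. The same interaction is the test of whether Pole4 loss differed between Trp53-/- and Trp53+/+ cells. The 2 Pole4 backgrounds share no libraries, and all 4 genotypes enter each difference. For Trp53+/-, the interaction was above 0 for 10 of 10 genes (0.32 to 0.82), with 0 called by edgeR or DESeq2, and 0.0% of all genes called. An unadjusted p under 0.05 was reached by 4 members and by 10.1% of all genes.

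The balance within pairs of paralogues was described by ratios. That of Ccnb1 to Ccnb2 CPM was 2.07 ± 0.0747 in Pole4-/- Trp53+/+ and 2.81 ± 0.275 in Pole4-/- Trp53-/- cells, and that of Cdc25b to Cdc25c was 2.36 ± 0.0574 and 2.01 ± 0.204 (SD, n = 3). Neither pair of groups overlapped (exact permutation p = 0.1 for each, the smallest possible). In Pole4+/+ cells, the groups overlapped, with 2.59 ± 0.016 and 2.35 ± 0.45 for Ccnb1 to Ccnb2 (exact permutation p = 0.7) and 1.90 ± 0.0986 and 2.25 ± 0.396 for Cdc25b to Cdc25c (exact permutation p = 0.2). The first Pole4+/+ Trp53-/- library stood apart in both, at 1.83 against 2.68 and 2.53 for Ccnb1 to Ccnb2 and at 2.70 against 2.07 and 1.97 for Cdc25b to Cdc25c, so no direction is read from these means. These 2 ratios and Cdk1 to Wee1 were tested in 5 comparisons each, 15 in all, so with 3 libraries a group none could pass after correction.

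Genes that act around CDK1 were described by 7 lists, chosen with earlier results of these data known. Their counts for Pole4-/- Trp53-/- against Pole4-/- Trp53+/+ cells stand beside 21.8% of all genes called higher and 20.8% called lower. Of the 8 partners of the Polo and Aurora kinases, 7 rose in Pole4-/- Trp53-/- against Pole4-/- Trp53+/+ cells (median log2 difference 1.60), and Tpx2, the activator of Aurora A, had the lowest p (1.56 ± 0.18, adjusted p = 1.74e-05). Ajuba did not pass the test, at 0.36 ± 0.19 (adjusted p = 0.132). Of the 10 factors in G2/M transcription, 7 rose and 1 fell. Rbl1, which encodes the pocket protein p107, rose by 0.98 ± 0.12 (adjusted p = 2.07e-05), and Rbl2, which encodes p130 of the DREAM complex of resting cells, decreased by 0.66 on the log2 scale (SE 0.14, adjusted p = 0.00169). Foxm1 and Mybl2 were among those that rose, by 1.83 ± 0.27 and 2.54 ± 0.39. Lin37 (-0.26 ± 0.16) and Lin52 (0.43 ± 0.19), subunits of the MuvB core, did not pass the test.

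Of the 11 genes of cyclin destruction by the anaphase-promoting complex, 6 rose and 1, the subunit Anapc2 (-0.25 ± 0.09, adjusted p = 0.0384), fell. The subunit genes Anapc10, Anapc11, Cdc16 and Cdc27 did not pass, at 0.03 to 0.31. Fbxo5, which encodes the inhibitor EMI1, led with 2.001 ± 0.22 (adjusted p = 1.24e-05). Of 8 partners of CDK1 and CDK-activating kinase genes, 5 rose: Cks1b (1.296 ± 0.17, adjusted p = 4.63e-05), Cks2, Cdk2, Ccnf and Cdc25a. The 3 CDK-activating kinase genes Cdk7, Ccnh and Mnat1 did not pass the test, with differences of -0.12 to 0.17. In the Greatwall and PP2A-B55 module, 6 of 7 rose, of which Mastl, the Greatwall kinase itself, moved most (1.61 ± 0.16, adjusted p = 4.71e-06) and the others by 0.27 to 0.55. Ensa, which encodes a substrate of that kinase, stood at -0.11 ± 0.10 and did not pass.

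Of the 8 brakes on CDK1, 1 fell and 2 rose, shares near those of all genes. Cdkn1a fell from 342, 361 and 363 CPM in Pole4-/- Trp53+/+ to 8.80, 6.07 and 5.17 CPM in Pole4-/- Trp53-/- libraries, a log2 difference of -5.72 ± 0.26 (adjusted p = 1.47e-09). Pkmyt1, which encodes the other inhibitory kinase of CDK1, rose by 1.60 ± 0.24 (adjusted p = 0.000118) and Chek1, which encodes the checkpoint kinase that restrains the CDC25 phosphatases, by 1.44 ± 0.18 (adjusted p = 3.51e-05). Chek2, Gadd45a, Gadd45b, Gadd45g and Sfn did not pass the test, at -0.37 to 0.27. Cdkn1a stood at 342 to 363 CPM in Pole4-/- Trp53+/+ and at 232 to 251 CPM in Pole4+/+ Trp53+/+ libraries, which did not overlap, but the log2 difference of 0.56 ± 0.21 did not pass edgeR's test (adjusted p = 0.115). Of 6 paralogues of the mitotic entry genes with enough counts, 4 rose, namely Cdc25a, Cdk2 and Pkmyt1, which other lists also hold, and Plk4, the kinase of centriole duplication, with the lowest p (1.58 ± 0.17, adjusted p = 8.66e-06), while Plk2 and Plk3 did not pass the test (0.02 ± 0.19 and 0.19 ± 0.20). Ccna1, Ccnb3, Wee2, Plk5 and Aurkc had too few counts to be tested.

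In Pole4+/+ cells, 3 of the 55 genes tested in these lists were called, beside 4.6% of all genes, for Trp53-/- against Trp53+/+: Cdkn1a (-4.59 ± 0.24, adjusted p = 1.06e-08), Mastl (0.58 ± 0.15, adjusted p = 0.0371) and Fzr1, an activator of the anaphase-promoting complex (0.38 ± 0.08, adjusted p = 0.0154). Libraries were also left out in turn for these lists, an alternative chosen after seeing the data. Without the first Pole4+/+ Trp53-/- library, 31 of the 55 were called, 30 higher and 1 lower and these 3 among them, beside 16.9% of all genes. Without the second of that genotype 2 were called, and without any other library of the pair only Cdkn1a was. In that first library, Mybl2 stood at 14.8 CPM against 48.4 and 56.7 in the other libraries of its genotype, and Foxm1 at 56.2 against 118 and 134 CPM. In Pole4-/- cells, 37 of the 55 were called with all libraries and 34 to 36 with any library of the pair left out, beside 42.6% and 31.5% to 37.3% of all genes.

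**Figure D4:**
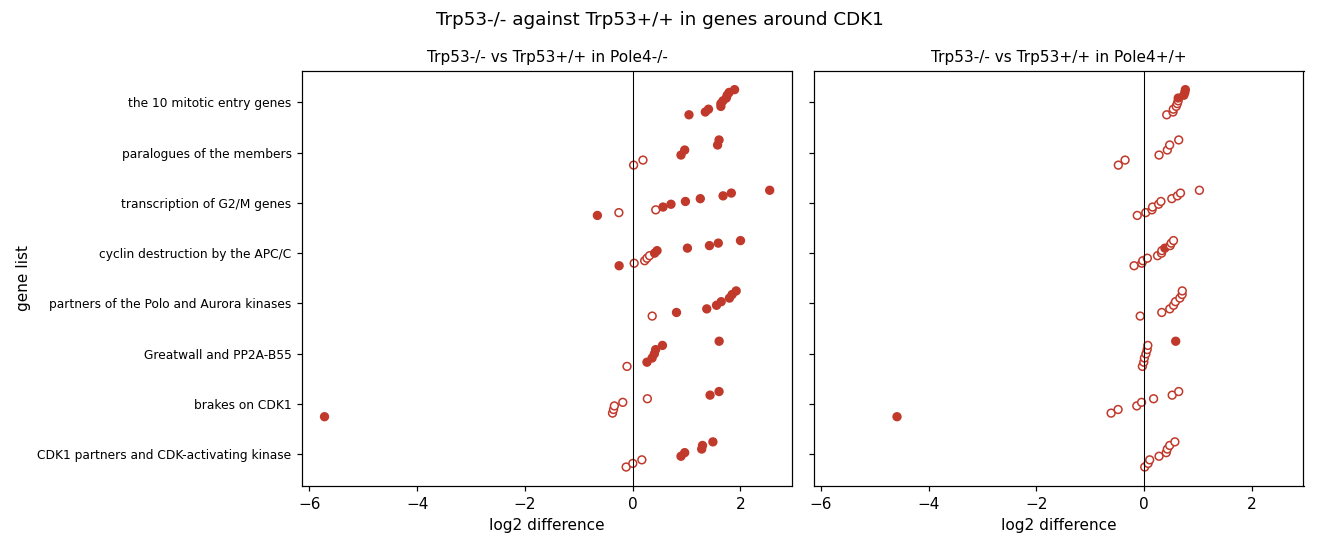
Log2 difference of Trp53-/- against Trp53+/+ for each gene of the 7 lists and for the 10 mitotic entry genes, in Pole4-/- cells (left) and Pole4+/+ cells (right). Each circle is a gene, filled where its adjusted p was under 0.05. All 10 mitotic entry genes lie above 0 in both panels, all filled on the left and 4 on the right, and Cdkn1a stands alone far to the left.

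The genes whose levels followed the mitotic entry genes most closely were Bub1, Kif11, Racgap1, Chaf1a and Exo1. Their Pearson r with the mean of the 10 standardized log2 levels was 0.995, 0.994, 0.993, 0.993 and 0.993 over the 18 libraries, which share the same genotypes and scaling. Between the 10 genes and their own mean, r ran from 0.943 (Wee1) to 0.996 (Ccna2). Each of the 10 enters that mean, so these values cannot be set beside those of the other genes. Bub1 encodes a kinase of the spindle checkpoint, Kif11 a spindle motor and Racgap1 a regulator of cytokinesis, while Chaf1a assembles chromatin behind replication forks and Exo1 resects DNA.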

How the data were processed

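For each library, the authors made cDNA with an Ovation kit, trimmed reads with Trim Galore, and used STAR 2.5.2 and RSEM 1.3.0 on GRCm38. The deposited values are RSEM expected counts for 51912 genes in 18 libraries, of which 6.14% lay over 0.005 from a whole number; they were rounded before testing. 51719 identifiers matched GENCODE names on GRCm38.

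Genes were filtered with edgeR's filterByExpr, leaving 15710, and TMM-scaled. A model with a mean for each of the 6 genotypes was fitted (edgeR 4.0.16 in R 4.3.3), leaving 12 residual degrees of freedom. Differences were tested by robust quasi-likelihood F-tests with Benjamini-Hochberg adjustment over all genes and called under 0.05. The SE is the log2 difference divided by the square root of F. The 10 genes together held 1760 to 18660 counts per library. In a set of simulated counts for Trp53-/- against Trp53+/+ in Pole4-/- (15710 genes), 100 genes were changed 3-fold and 100 others 1.5-fold. All had a mean over 5 CPM. Of these, 98% and 41% were recovered, with 5 false calls. In the data, 42.6% of genes were called in this comparison, so these rates need not carry over.

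The 10 genes, the lists and the marker genes were chosen with earlier results of these data known. All 10 are named, and from each list the gene with the lowest p and all of a count of 5 or fewer. Foxm1 and Mybl2 were named after their values were seen. The alternatives were RLE scaling, library totals alone, DESeq2 1.42.0, no filter, only the groups compared, a replicate block, a sex term and leaving out each library, the last also for the lists, as chosen after seeing the data. Sex was read from Xist (under 50 CPM: male). Promoter windows are from RefSeq.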

Additional observations from a re-analysis of the deposited data

How the results depend on the processing

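All 10 genes were called for Trp53-/- against Trp53+/+ in Pole4-/- cells under every alternative, with each of the 6 libraries left out in turn included. In Pole4+/+ cells the 4 calls became 2 with library totals alone, with the replicate block and with the sex term, 7 with DESeq2, 0 in a fit of only the groups compared, and 2 to 10 when each library was left out. For Trp53+/- against Trp53+/+ in Pole4-/- cells, the 8 calls became 3 with the sex term and 0 to 9 when a library was left out. Cdk1 and Wee1, not among the 8, were called under 5 and 2 of the 7 alternatives that left out no single library. For Trp53-/- against Trp53+/- the 10 calls in Pole4-/- cells became 2 with library totals alone and 7 to 10 with a library left out, and the 0 calls in Pole4+/+ cells became 0 to 9 with a library left out. The 9 calls for Pole4 loss in Trp53+/+ cells became 0 with the sex term and 0 to 9 with a library left out. Wee1, not among the 9, was called under 2 of the same 7 alternatives. The Trp53-/- interaction gave 3 calls with RLE scaling, 9 with DESeq2, 4 with no filter on low counts, 5 with the replicate block, and 0 to 10 with a library left out. The causes were not tested. The other comparisons had 0 calls under every alternative. Of the 55 list genes, the 3 called for Trp53-/- against Trp53+/+ in Pole4+/+ cells became 1 to 31 with a library left out.

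Directions changed only for differences that no alternative called. With library totals alone, the median of all genes moved to -0.44 for Pole4-/- against Pole4+/+ in Trp53-/- cells, and the log2 differences became -0.15 for Ccna2, -0.11 for Ccnb1, -0.37 for Ccnb2, -0.13 for Cdk1, -0.32 for Cdc25c, -0.22 for Plk1, -0.19 for Aurka, -0.24 for Aurkb and -0.12 for Wee1. With a library left out, they ran from -0.041 to 0.13 for Ccnb2, from -0.13 to 0.017 for Cdc25b, from -0.086 to 0.21 for Cdc25c, from -0.053 to 0.45 for Plk1, from -0.032 to 0.46 for Aurka and from -0.049 to 0.29 for Aurkb. For Trp53+/- against Trp53+/+ in Pole4+/+ cells, they ran from -0.056 to 0.16 for Ccnb1, from -0.10 to 0.098 for Cdk1 (0.074 with the sex term), from -0.13 to 0.0996 for Cdc25c and from -0.007 to 0.076 for Wee1. For Pole4 loss in Trp53+/- cells, Wee1 stood at -0.0021 with the sex term and ran from -0.024 to 0.099.

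The replicate numbers were not taken as pairs in the main fit, and entered as a block in an alternative. Same-numbered libraries correlated at -0.26 to 0.59 in their deviations from the genotype means, with 22 of 45 pairs over 0.1. The median was 0.098, against -0.06 for libraries of other numbers. Of 18 libraries, 13 correlated best with their own number. Whether same-numbered libraries share a source was not tested. With 3 libraries a group, the simulated 1.5-fold changes were recovered less often than 3-fold ones, so small differences may have gone undetected.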
